A study of Homo sapiens with 27 samples.

Results

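The comparison described here set T47D cells carrying a GATA3 frameshift named A333fs directly against T47D cells carrying a GATA3 frameshift named C321fs, by RNA-seq, with 3 samples of each. These are 6 of the 12 RNA-seq samples and 6 of the 27 samples of the series, chosen by the mutation given in their titles and by no measured value. T47D, an established cell line, was derived from a luminal breast tumour, responds to estrogen and expresses GATA3 itself. Each mutant cDNA carried a Ty1 tag, was delivered by lentivirus and was selected with puromycin. Each mutant was represented by 1 stable line, so an effect of the line cannot be told apart from an effect of the mutation. The study refers to its RNA-seq replicates as biological. Whether the 3 samples of a line were separate infections or cultures is not given in the sources used here, so p-values measure the spread between these samples, which may be technical. The cells kept their own wild-type GATA3 in all groups. The labels give a passage below 10, no treatment and no time for any group. Samples with an empty vector (control, 3) and samples with a mutant named Splice del (3) entered the same fit, and are used below only to show where they stood on the genes that parted the 2 frameshifts.

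GATA3 is a transcription factor with a pair of zinc fingers that reads GATA motifs and, with FOXA1 and the estrogen receptor, maintains the luminal identity of mammary epithelium. The second finger, toward the C-terminus, makes most of the contact with the motif, and each finger is held by cysteines around a zinc ion. Frameshifts that cluster in and after the second finger are among the frequent GATA3 lesions of luminal breast tumours. The C321fs frameshift removes the rest of that finger from an early cysteine on, whereas A333fs leaves more of its native residues in place before the altered reading frame begins.

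Both positions lie in exon 5 of the 6 exons of the GATA3 transcript that encodes 444 residues, at chr10:8069473-8069598 of hg38 on the plus strand. The exon is printed because it holds both mutated codons, and the capitals mark the cysteine codon of C321fs, at chr10:8069509-8069511, and the alanine codon of A333fs, at chr10:8069545-8069547.
GATA3 exon 5: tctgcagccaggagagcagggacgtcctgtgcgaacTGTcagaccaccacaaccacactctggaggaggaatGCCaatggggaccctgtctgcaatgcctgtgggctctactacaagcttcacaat
The codons are 12 apart, and 36 bases separate their first bases. The reference sequence is shown, since the altered alleles themselves were not read from the data.

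GATA3 RNA was slightly lower in A333fs than in C321fs. The level, in counts per 1000000 (CPM) of a library size scaled by the trimmed mean of M-values, was 1016, 1006 and 1028 in the A333fs samples and 1142, 1130.2 and 1155 in the C321fs samples. The groups did not overlap, and the difference was -0.17 on the log2 scale (SE 0.05) with a p of 0.022 by the quasi-likelihood test of edgeR after Benjamini-Hochberg adjustment, which missed the threshold of 0.01. Splice del samples had 962, 992 and 1050.5 CPM and control samples 1247, 1339.7 and 1257 CPM. A gene count adds the endogenous transcript to whatever part of the introduced cDNA the annotated exons cover, so it does not measure the mutants alone.

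Across the transcriptome, 14789 of 26485 genes passed the filter on low counts, and a gene was called when its adjusted p was below 0.01 and its fold change was over 1.5. By this rule 366 genes were higher in A333fs (2.47% of those tested) and 455 were lower (3.08%). With no minimum fold, 1005 genes were higher (6.8%) and 1315 were lower (8.89%). The higher genes included the larger changes: 67 exceeded a fold change of 4 against 14 of the lower genes, and the median log2 difference was 1.04 among the higher and -0.85 among the lower genes, beside -0.02 over all tested genes. The 6 libraries held 28055843 to 33699541 counted fragments. In bulk samples, fewer cells that express a gene and less RNA per cell cannot be told apart.

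**Figure D1:**
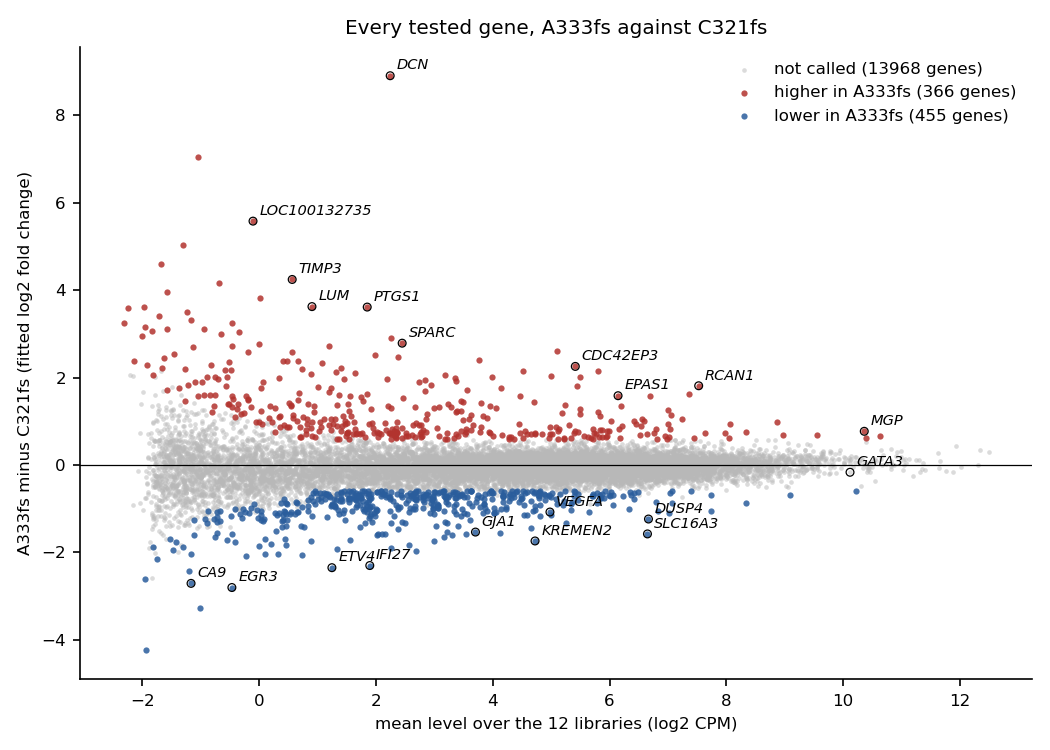
Fitted log2 difference between A333fs and C321fs (y axis) against the mean level over the 12 libraries (x axis, log2 CPM) for the 14789 tested genes; red points are the 366 genes called higher, blue points the 455 called lower, and grey points the rest. The tallest red points, led by DCN at 8.91, have no counterpart of that size below 0, and GATA3 lies close to the line at -0.17.

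The largest difference belonged to a gene of the extracellular matrix. Decorin, DCN, a small leucine-rich proteoglycan that binds collagen fibrils, was measured at 12.4, 13.4 and 11.1 CPM in A333fs and at 0.0304, 0 and 0.0324 CPM in C321fs. All C321fs samples were at the edge of detection, with 2 counts in total against 1180 in A333fs, a ratio of 566 with an exact 95% counting interval of 156 to 4683. The fitted log2 difference was 8.91 (SE 0.27, adjusted p = 2.6e-12, edgeR). Splice del samples held 5.57, 6.65 and 5.71 CPM, and control samples 0.102, 0.0321 and 0.0694 CPM, so Splice del lay between A333fs and the other groups.

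Lumican, LUM, a related proteoglycan encoded beside DCN on chromosome 12 (LUM at chr12:91103455-91111765 and DCN at chr12:91145258-91183029, hg38, both on the minus strand), had 4.45, 5.62 and 4.05 CPM in A333fs and 0.426, 0.208 and 0.486 CPM in C321fs. The A333fs samples were all higher, by 3.62 on the log2 scale (SE 0.27, edgeR adjusted p = 6.7e-08). TIMP3, an inhibitor of metalloproteinases that is bound to the matrix, had 4.42, 4.12 and 4.58 CPM in A333fs and 0.183, 0.312 and 0.194 CPM in C321fs, a log2 difference of 4.24 (SE 0.22, edgeR adjusted p = 1.1e-09). The remaining genes with the largest excess were LOC100132735 (log2 difference 5.58), ITGAM (4.16), ST8SIA1, a ganglioside synthase (3.81), PTGS1, the constitutive cyclooxygenase (3.61), SVEP1, a large matrix protein (3.50), ZMAT4 (3.12) and KCNK3, a potassium channel (3.04). Each had under 10 CPM in every A333fs sample, and none of the 8 genes from TIMP3 to KCNK3 had more than 1 CPM in a C321fs sample.

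The 10 genes with the smallest p among those higher in A333fs were led by RCAN1 and again included DCN, and SPARC and PHLDA1 were also among them. RCAN1, an inhibitor of the phosphatase calcineurin, had 349.8, 341 and 339 CPM in A333fs and 93.3, 102 and 98.6 CPM in C321fs, a log2 difference of 1.81 (SE 0.05, edgeR adjusted p = 1.7e-12). The ubiquitin ligase subunit FBXO32 (1.80), the septin regulator CDC42EP3 (2.25), the secreted laminin-binding protein NTN4 (2.02) and the chemokine CCL28 (2.01) followed. So did the hypoxia-inducible factor EPAS1 (1.58) and the tight junction protein CLDN1 (1.57). No overlap between the 3 A333fs and the 3 C321fs samples was a condition for this set, met by 40.6% of all tested genes. DCN, NTN4 and SPARC were the matrix genes among the 10. CLDN1 had 137, 137 and 139 CPM in A333fs, near the 147, 149 and 165 CPM of the control, and 45.0, 47.9 and 46.1 CPM in C321fs. For CLDN1 the group that stood apart from the control was C321fs, with Splice del between, at 75.9, 74.5 and 74.7 CPM.

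Genes of the extracellular matrix and of mesenchymal cells were called higher more often than lower. Of 67 matrix genes listed, 46 were tested and 12 of these were higher (26.1%, beside 2.47% of all genes) and 2 lower (4.35%, beside 3.08%), with a median log2 difference of 0.24 beside -0.02 over all genes. SPARC, a collagen-binding glycoprotein, had 11.8, 11.6 and 12.4 CPM in A333fs and 1.77, 1.63 and 1.78 CPM in C321fs, with a log2 difference of 2.79 (SE 0.11, edgeR adjusted p = 5.5e-11). Splice del samples lay between, at 6.61, 7.30 and 8.11 CPM, and control samples at 0.204, 0.257 and 0.278 CPM. NTN4 had 81.5, 87.0 and 81.8 CPM against 19.8, 22.1 and 19.9 CPM, and HMCN1, a giant basement membrane protein, had 38.8, 44.6 and 49.2 CPM against 8.55, 8.77 and 12.3 CPM. The other higher members were MGP, CTGF, THBS1, COL27A1, FN1, COL11A1 and COL5A1, of which COL11A1 was under 1 CPM in all 6 libraries. THBS1 had a log2 difference of 0.62, which fell to 0.55 without A333fs replicate 3 and so below the fold limit, and COL5A1 (1.2) had an edgeR adjusted p of 0.011 without C321fs replicate 1. The 2 lower members were LTBP4, which holds latent TGF-beta in the matrix (-0.76), and the fibrillar collagen COL3A1 (-0.63), which lost its call in 4 of 6 refits with a library omitted (without A333fs replicate 1 or 3, or C321fs replicate 1 or 3, at -0.51 to -0.65).

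In the mesenchymal list, which shares members with the matrix list, 6 of 26 tested members were higher (SPARC, KCNMA1, MGP, CALD1, VIM and FN1). That was 23.1%, beside 2.47% of all genes. Lower was 1 member, TAGLN (3.85%, beside 3.08%), and the median was 0.37. Vimentin, VIM, the intermediate filament of mesenchymal cells, had 10.4, 8.87 and 8.25 CPM in A333fs and 4.17, 5.17 and 4.83 CPM in C321fs, a log2 difference of 0.96 (SE 0.11, edgeR adjusted p = 1.4e-05). All A333fs samples were above all C321fs samples, and both lines were above the control at 2.61, 2.98 and 3.47 CPM. TAGLN, an actin-binding protein of smooth muscle, went the other way, with 3.45, 3.89 and 3.43 CPM in A333fs against 7.64, 7.07 and 7.03 CPM in C321fs (log2 difference -1.01). LOX, a collagen cross-linking enzyme, had 1.52, 1.12 and 1.2 CPM in A333fs and 1.86, 2.18 and 1.65 CPM in C321fs, with a log2 difference of -0.57 (edgeR adjusted p = 0.055), and was not called. ZEB1, a repressor of epithelial genes, was not tested, with 1 count in the 3 A333fs libraries and 2 in the 3 C321fs libraries. CALD1 (0.63) fell to 0.58 without C321fs replicate 1, under the fold limit.

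**Figure D2:**
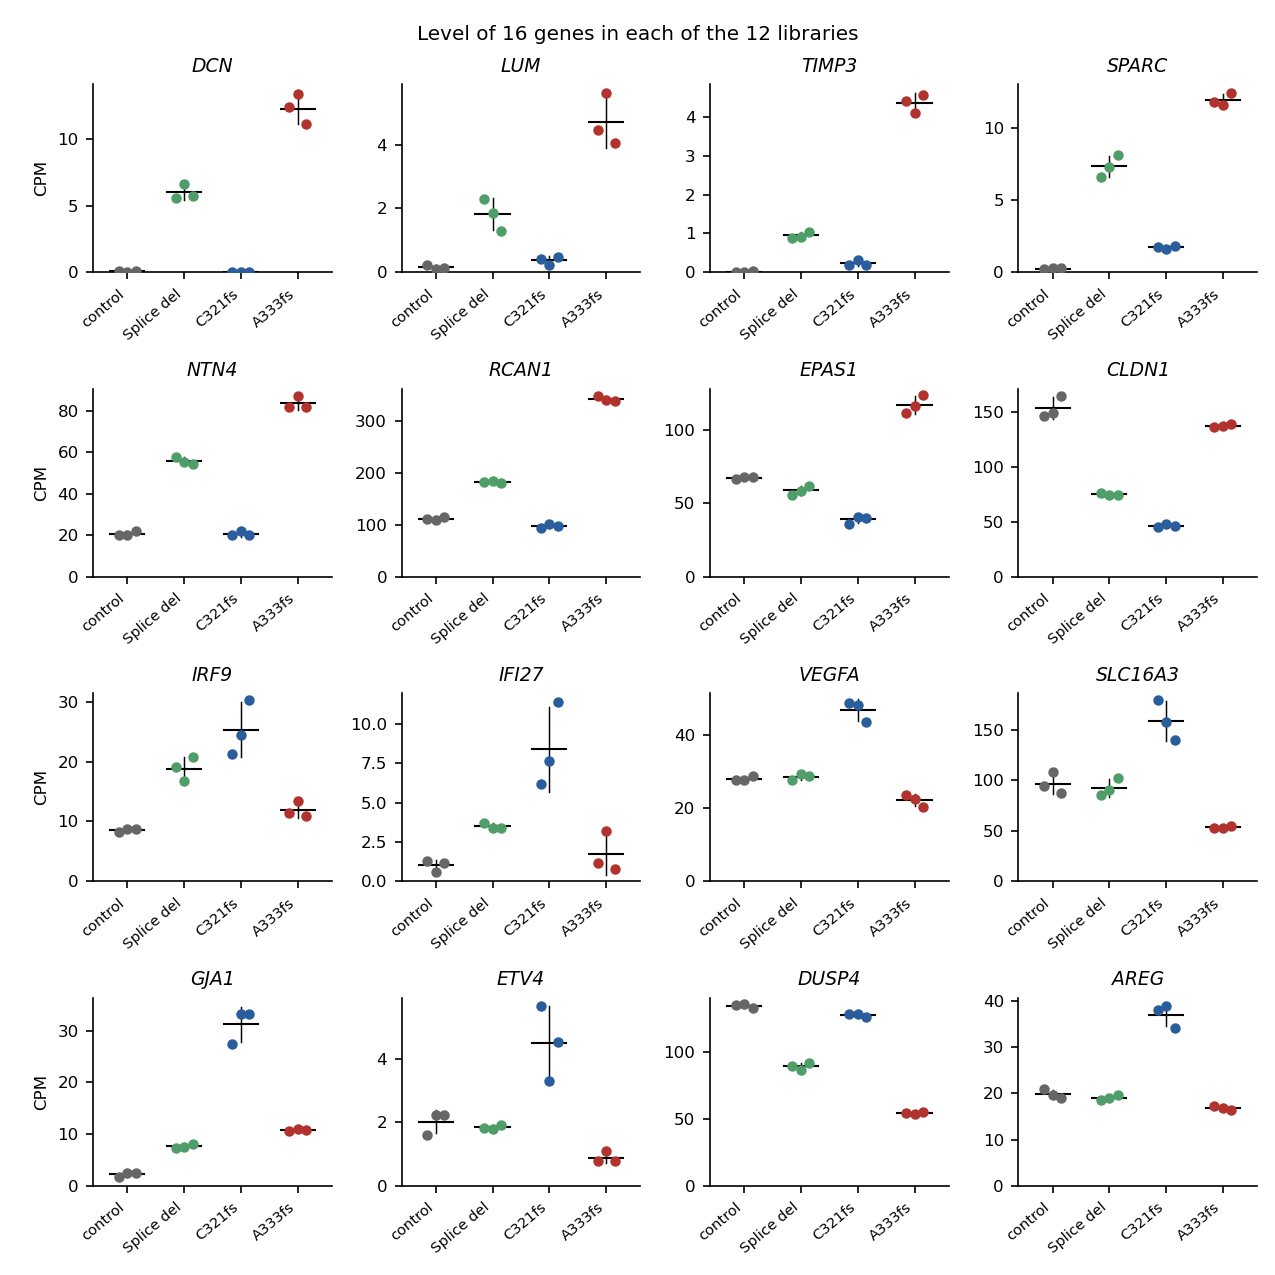
Level in CPM (y axis, from 0) of 16 genes in each of the 12 libraries; points are single libraries of the control, Splice del, C321fs and A333fs lines, horizontal bars are group means and vertical bars 1 SD (n = 3). Among the genes drawn, DCN and RCAN1 show A333fs above C321fs and SLC16A3 and IRF9 show the reverse; for CLDN1 the control stands with A333fs, and for DCN the Splice del samples lie at 5.57 to 6.65 CPM, between the mutants.

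Luminal markers were not called. All 10 were tested in edgeR, 0 passed (3 were higher and 1 lower at an unadjusted p below 0.05, a limit met by 17.6% of all tested genes on the higher and 21.7% on the lower side, and DESeq2 also called 0), and their summed level ran from 15481 to 16718 CPM in A333fs and from 14541 to 15199 CPM in C321fs. FOXA1, the pioneer factor that opens chromatin for the estrogen receptor, had 360.3, 367 and 374 CPM in A333fs and 383, 384 and 394 CPM in C321fs (log2 difference -0.08, edgeR adjusted p = 0.22). ESR1, the estrogen receptor, had 228, 244 and 244 CPM against 201, 223 and 232 CPM (0.13, edgeR adjusted p = 0.14), and the samples did overlap. CDH1, the epithelial cadherin, had 559, 572 and 644 CPM against 439, 453 and 502 CPM, higher in every A333fs sample by 0.35 on the log2 scale (edgeR adjusted p = 0.0026) but under the fold limit.

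Markers of other cell types were sparse. In the basal list KRT14 was the 1 called marker of 5 tested, at 0.581, 0.510 and 0.616 CPM in A333fs and 0.0304, 0 and 0.0972 CPM in C321fs, and the summed basal level was 23.2 to 25.9 CPM against 17.8 to 21.9 CPM, with KRT5, KRT14, KRT17, TP63, CNN1 and OXTR under 1 CPM in all 6 libraries. Among fibroblast markers FAP had no count in the 6 libraries, COL1A2, PDGFRB and THY1 stayed under 1 CPM, and the summed level was lower in A333fs (29.7 to 33.5 CPM) than in C321fs (40.9 to 49.7 CPM), opposite to the matrix genes above. ITGAM, also an integrin of myeloid cells, was the 1 called leukocyte marker of 3 tested (1.58, 1.40 and 1.29 CPM against 0.0304, 0.104 and 0.0972 CPM), while PTPRC, the pan-leukocyte marker, had no count. No endothelial marker passed the filter, and PECAM1 and TEK had no count.

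Keratins and tight junction genes were higher or not called. Of 23 tested genes of desmosomes and keratins, 5 were higher (KRT23, KRT4, KRT15, KRT14 and KRT13), or 21.7% beside 2.47% of all genes. In edgeR's test 0 were lower, and DESeq2 also called 0 lower. At an unadjusted p below 0.05 in edgeR 3 of the 23 were lower, beside 21.7% of all tested genes. KRT23, a type I keratin, had 125.4, 123 and 126 CPM in A333fs and 60.2, 70.9 and 63.1 CPM in C321fs, a log2 difference of 0.95 (SE 0.06, edgeR adjusted p = 9.8e-09). KRT4, a keratin of stratified mucosa, had 4.20, 3.99 and 4.29 CPM against 0.761, 1.14 and 0.778 CPM (2.22). Of 37 claudin and tight junction genes, CLDN1, CGNL1 (2.11) and AMOTL1 (0.74) were higher (8.11%, beside 2.47% of all genes). In edgeR's test 0 were lower, and DESeq2 also called 0 lower. At an unadjusted p below 0.05 in edgeR 8 of the 37 were lower, beside 21.7% of all tested genes. Claudins seal the space between epithelial cells, and CGNL1 and AMOTL1 tie the junction to the cytoskeleton.

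Transcription factors that work with GATA3 in the mammary gland were partly higher. Of 36 tested, 5 were called, all higher in A333fs (13.9%, beside 2.47% of all genes): SOX9, SOX4, RUNX2, ID1 and TFAP2B. The list median was 0.04. At an unadjusted p below 0.05 in edgeR, 12 members were higher and 13 lower, beside 17.6% and 21.7% of all tested genes. With no minimum fold, 8 were higher and 3 lower at an adjusted p below 0.01, beside 6.8% and 8.89% of all tested genes. Without A333fs replicate 1 or C321fs replicate 1, 1 member was called lower. SOX9, a factor of mammary progenitors, had 119, 122 and 130.0 CPM in A333fs and 61.2, 63.1 and 60.5 CPM in C321fs (log2 difference 1.0, SE 0.06, edgeR adjusted p = 2.4e-09), and Splice del samples, at 118, 121 and 131 CPM, were as high as A333fs. SOX4 had 118, 116 and 119 CPM against 78.5, 72.6 and 67.6 CPM (0.69). ID1 (0.59) was called by a narrow margin, and its difference was 0.49 without C321fs replicate 3 and 0.56 without A333fs replicate 1, while TFAP2B (1.38) had an edgeR adjusted p of 0.013 without A333fs replicate 1 or without C321fs replicate 3. Without either of these 2 libraries 3 members were higher. Estrogen receptor targets split, with 5 of 40 higher (BCL2, IGFBP5, TFF3, TFF1 and KRT13) and 5 lower (AREG, RAPGEFL1, ELOVL2, EGR3 and RET). Each side made up 12.5% of the tested targets, beside 2.47% of all genes higher and 3.08% lower. RET (-0.61) stood at -0.58 without A333fs replicate 2, under the fold limit. BCL2, an inhibitor of apoptosis, had 7.20, 8.17 and 6.28 CPM against 1.95, 1.73 and 1.85 CPM (1.96), and TFF3, a secreted trefoil peptide, had 102, 92.0 and 94.7 CPM against 61.9, 52.6 and 41.5 CPM (0.89).

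Leaving aside the short cell type marker lists, the list with the largest share of lower genes was the response to hypoxia. Hypoxia-inducible factors bind DNA at the core ACGTG and raise genes of glycolysis, lactate export and angiogenesis, and prolyl hydroxylases mark them for destruction when oxygen is present. Of 39 tested members of the hypoxia list, 12 were lower in A333fs (30.8%, beside 3.08% of all genes) and 1, EGLN3, was higher (2.56%, beside 2.47%), and the median log2 difference was -0.40 beside -0.02. With no minimum fold, 25 of 39 were lower and 4 higher at an adjusted p below 0.01, beside 8.89% and 6.8% of all tested genes. In 30 of the 39 all A333fs samples were below all C321fs samples, an order found for 21.8% of tested genes, and in 6 they were all above, an order found for 18.7%. The summed level of the list was 10414 to 11103 CPM in A333fs and 10863 to 11676 CPM in C321fs, and these ranges overlapped. Splice del samples, at 9472 to 10313 CPM, lay below both lines, and control samples, at 12126 to 13689 CPM, lay above both.

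SLC16A3, the monocarboxylate transporter that exports lactate, had 52.2, 52.6 and 54.6 CPM in A333fs and 179, 157 and 140.0 CPM in C321fs, a log2 difference of -1.58 (SE 0.09, edgeR adjusted p = 5.8e-09). Control samples, at 94.1, 108 and 87.5 CPM, and Splice del samples, at 85, 89.8 and 102 CPM, lay between the 2 frameshifts. VEGFA, the endothelial growth factor, had 23.7, 22.6 and 20.4 CPM in A333fs and 48.9, 48.4 and 43.5 CPM in C321fs (-1.08, SE 0.07, edgeR adjusted p = 9.8e-09), with the control at 27.8, 27.7 and 28.8 CPM. For VEGFA all C321fs samples were above the control and all A333fs samples below it, with C321fs the further away. A333fs, control and Splice del samples all lay at or below 29.4 CPM.

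Several enzymes of glycolysis were also lower. PFKP, a phosphofructokinase, had 77.3, 76.8 and 81.6 CPM in A333fs against 168, 167 and 154 CPM in C321fs (-1.05), and LDHA, the lactate dehydrogenase subunit, had 462, 455 and 464 CPM against 728, 788 and 694 CPM (-0.68). BNIP3, a mitochondrial receptor for autophagy, had 33.4, 33.7 and 31.3 CPM against 72.4, 73.8 and 55.8 CPM (-1.04). PFKFB4, PDK1, ALDOC, ANGPTL4, MXI1, NDRG1 and CA9 were also lower, with log2 differences from -0.71 (ALDOC) to -2.71 (CA9). CA9, a carbonic anhydrase that is a textbook target of hypoxia-inducible factors, was rare, at 0.129, 0.223 and 0.147 CPM in A333fs and 1.67, 1.18 and 0.454 CPM in C321fs. Not every glycolytic gene followed: GAPDH had a log2 difference of -0.11 (edgeR adjusted p = 0.24), and ENO1, at 2045, 1934 and 2154 CPM in A333fs and 1644, 1628 and 1486 CPM in C321fs, was higher by 0.37 (edgeR adjusted p = 0.0028), under the fold limit.

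A factor, a regulator and a competitor of the same pathway were higher in A333fs. EPAS1, which encodes the factor subunit HIF-2alpha, had 112, 116 and 124 CPM in A333fs and 36.2, 40.8 and 40.3 CPM in C321fs, a log2 difference of 1.58 (SE 0.06, edgeR adjusted p = 5.6e-11), with the control between them at 66.9, 67.7 and 67.8 CPM. EGLN3, a prolyl hydroxylase, had 8.42, 7.37 and 7.48 CPM against 3.01, 3.40 and 2.79 CPM (1.34). CITED2, which competes with hypoxia-inducible factors for their coactivators and was singled out here after its values were seen, had 272, 271 and 279.9 CPM in A333fs, 93.3, 93.6 and 79.4 CPM in C321fs, and 109 to 121 CPM in the control (log2 difference 1.63).

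The promoters of 2 hypoxia genes that were lower in A333fs are printed because they hold the core ACGTG, shown in capitals on either strand, in the 250 bases before the start of transcription (RefSeq, GRCh38.p14, the build hg38). LDHA lies at chr11:18394313-18394562 and CA9 at chr9:35673678-35673927, both on the plus strand.
LDHA promoter: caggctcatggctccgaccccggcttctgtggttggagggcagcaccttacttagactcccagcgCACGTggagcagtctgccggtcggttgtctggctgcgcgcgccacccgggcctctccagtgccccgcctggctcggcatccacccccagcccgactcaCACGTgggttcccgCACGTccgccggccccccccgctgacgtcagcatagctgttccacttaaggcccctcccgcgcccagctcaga
CA9 promoter: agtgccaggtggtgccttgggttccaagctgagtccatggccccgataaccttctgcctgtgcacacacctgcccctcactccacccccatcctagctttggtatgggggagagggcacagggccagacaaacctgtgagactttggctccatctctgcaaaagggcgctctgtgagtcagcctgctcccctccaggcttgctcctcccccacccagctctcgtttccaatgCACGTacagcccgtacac
Of the 12 hypoxia genes called lower, 10 had a promoter in the table, and 5 of these (50%) held ACGTG or its reverse complement, beside 23.3% of the 10620 promoters matched to tested genes and 4 of 10 promoters (40%) of the interferon genes lower in A333fs. Among all genes lower in A333fs the share was 19.5% (60 of 308), and among all genes higher it was 15.0% (40 of 267). Uncalled members of the hypoxia list were not counted as a group, so the 50% does not set the called genes apart from them.

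The interferon-stimulated genes were called in 1 direction. They form the antiviral program that interferons switch on, with IRF9 among the factors that bind, at elements of the form GAAANNGAAA. Of 52 tested members, 11 were lower in A333fs (21.2%, beside 3.08%) and 0 were higher, and the median log2 difference was -0.33. DESeq2 called 9 lower and 0 higher. At an unadjusted p below 0.05 in edgeR's test 1 member was higher and 35 were lower, beside 17.6% and 21.7% of all tested genes. The members lay below 0 in 49 of 52 cases, while 46.6% of all tested genes lay above 0. With no minimum fold, 16 of 52 were lower at an adjusted p below 0.01 and 0 were higher in edgeR's test, beside 8.89% and 6.8% of all tested genes. The summed level of the list was 1301 to 1401 CPM in A333fs, 1458 to 1953 CPM in C321fs, 1532 to 1596 CPM in Splice del and 1229 to 1261 CPM in the control.

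IRF9, the DNA-binding subunit of the interferon-activated complex, had 11.4, 13.4 and 10.8 CPM in A333fs and 21.2, 24.6 and 30.3 CPM in C321fs, a log2 difference of -1.10 (SE 0.12, edgeR adjusted p = 4.9e-06), with the control at 8.18, 8.66 and 8.68 CPM. The C321fs samples were all above the others. IFI27, an interferon-induced mitochondrial protein, had 1.13, 3.22 and 0.793 CPM in A333fs and 6.18, 7.63 and 11.4 CPM in C321fs (-2.30, SE 0.33, edgeR adjusted p = 9.9e-05). MX1, an antiviral GTPase, had 33.2, 39.7 and 37.8 CPM against 47.4, 70.0 and 115 CPM (-1.07, SE 0.20, edgeR adjusted p = 0.001). IFITM1 (-1.0), IRF7 (-0.90), ISG20 (-0.77) and IFI6 (-1.16) were lower as well. Of the antigen presentation genes of MHC class I, which interferon also raises, 1 of 20 was lower (HLA-F, -0.93), or 5% beside 3.08%. In edgeR's test 0 were higher, and DESeq2 also called 0 higher. At an unadjusted p below 0.05 in edgeR 4 of the 20 were higher, beside 17.6% of all tested genes.

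The C321fs samples differed among themselves on this list more than the A333fs samples did. C321fs replicate 1 was the lowest of the 3 for 43 of 52 members and C321fs replicate 3 was the highest for 43 of 52. Without C321fs replicate 1 the count of lower members was 17, and without C321fs replicate 3 it was 7, as it was without A333fs replicate 1. ISG15 (-0.78), DDX60 (-1.0) and IFIT1 (-1.06) were among those that lost the call in that case: without C321fs replicate 3 their adjusted p-values were 0.017, 0.035 and 0.042 by the same edgeR test, and HERC6 (-0.60) stood at -0.45. IFIT1 kept its call in 1 of 6 refits with a library omitted, the one without C321fs replicate 1, and DDX60 and ISG15 in 2 of the 6.

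The promoters of IFI27 (chr14:94110486-94110735, plus strand) and IFI6 (chr1:27672193-27672442, minus strand; both RefSeq, GRCh38.p14) are printed because each holds GAAANNGAAA more than once, in capitals, on either strand.
IFI27 promoter: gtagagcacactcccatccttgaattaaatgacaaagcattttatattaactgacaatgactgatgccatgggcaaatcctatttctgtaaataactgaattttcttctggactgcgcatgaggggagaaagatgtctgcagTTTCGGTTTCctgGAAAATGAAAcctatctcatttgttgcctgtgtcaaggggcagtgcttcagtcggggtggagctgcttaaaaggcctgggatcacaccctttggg
IFI6 promoter: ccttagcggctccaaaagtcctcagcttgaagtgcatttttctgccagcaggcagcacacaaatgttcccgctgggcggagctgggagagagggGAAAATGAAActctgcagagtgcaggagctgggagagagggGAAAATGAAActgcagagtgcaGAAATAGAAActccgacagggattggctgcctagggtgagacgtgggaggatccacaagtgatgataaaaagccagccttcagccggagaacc
The element was present in 7 of the 10 promoters available for the 11 lower interferon genes (70%) and in 2.21% of all matched promoters. The list was made of interferon-stimulated genes, and its uncalled members were not counted as a group. The share therefore does not set the called genes apart from the rest of their list. For the GATA motif, searched on both strands as AGATAA or AGATAG or TGATAA or TGATAG, the shares were 15.4% of the promoters of genes higher in A333fs (41 of 267), 14% of those lower (43 of 308) and 13.3% of all 10620, and 6 of the 10 promoters of lower interferon genes held it. No match in these windows says only that the letters are absent there.

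**Figure D3:**
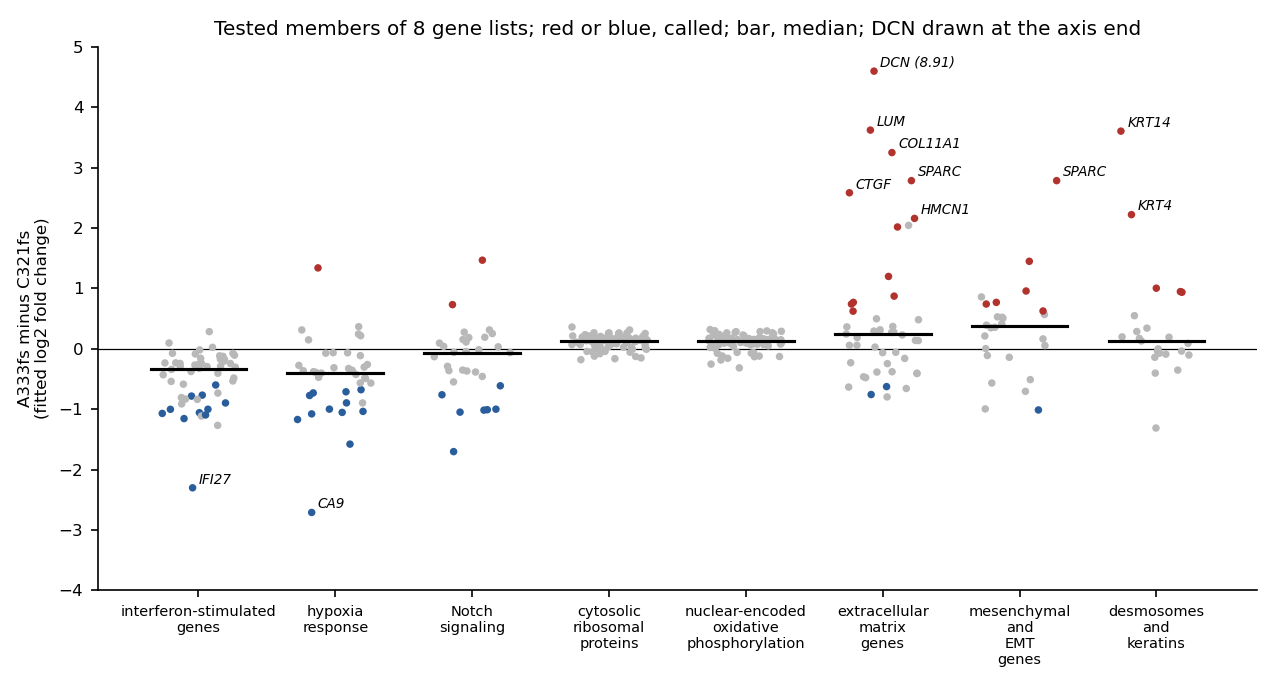
Fitted log2 difference between A333fs and C321fs (y axis) for each tested member of 8 gene lists (x axis); red and blue points are called genes, black bars are list medians, and DCN, at 8.91, is drawn at the end of the axis. The hypoxia and interferon lists lie mostly below 0 (medians -0.40 and -0.33), the matrix and mesenchymal lists extend upward, and ribosomal protein and oxidative phosphorylation genes stay in a narrow band with medians of 0.13.

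Signaling genes divided between the lines. Of 31 tested Notch pathway genes, 7 were lower in A333fs (22.6%, beside 3.08% of all genes) and 2 higher (6.45%, beside 2.47%). The lower ones were the feedback regulator NRARP (53, 50.9 and 50.2 CPM against 116, 96.6 and 95.7 CPM, log2 difference -1.0), the glycosyltransferase LFNG (-1.05), the ligand JAG2 (-0.76), DTX4 (-1.01), DTX1 (-1.70), HES2 (-1.02) and HES6 (-0.61), while the ligand DLL1 (17.1, 16.6 and 14.5 CPM against 6.21, 6.07 and 5.12 CPM, log2 difference 1.47) and the coactivator MAML2 (0.73) were higher. HES6 was the least secure of these, at -0.42 without C321fs replicate 1. DTX4 shares exon sequence with MPEG1 in the annotation, so reads may have been lost or split there.

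In the EGF and FGF list 4 of 35 tested genes were higher (11.4%, beside 2.47% of all genes), or 2 without A333fs replicate 3. Lower were 5 (14.3%, beside 3.08%). AREG, a ligand of the EGF receptor, had 17.4, 16.8 and 16.3 CPM in A333fs and 38.1, 38.9 and 34.2 CPM in C321fs (-1.14, SE 0.07, edgeR adjusted p = 4.8e-09), and the control, at 20.9, 19.7 and 19.0 CPM, lay near A333fs. DUSP4, a phosphatase that ends MAP kinase signaling, had 54.1, 53.3 and 55.0 CPM against 129, 128 and 126 CPM (-1.24, SE 0.05, edgeR adjusted p = 4.5e-11), and here the control, at 135, 136 and 133 CPM, lay with C321fs. ETV4, a transcription factor induced by MAP kinases, had 0.775, 1.08 and 0.793 CPM against 5.66, 3.29 and 4.54 CPM (-2.35). The receptors went apart, with FGFR2 higher (0.82) and FGFR3 lower (-0.87). Of 28 tested immediate early genes, EGR3 (-2.81), NR4A1 (-1.09), EGR1 (-1.13), MAFF (-0.69) and KLF10 (-0.67) were lower and BTG2 (0.72) and CTGF (2.58) were higher. The shares were 17.9% lower and 7.14% higher, beside 3.08% and 2.47% of all genes.

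In the TGF-beta, activin and BMP list 7 of 43 were higher (16.3%, beside 2.47% of all genes) and 5 lower (11.6%, beside 3.08%). TGFB2 was higher (3.81, 3.96 and 3.73 CPM against 0.852, 0.659 and 1.17 CPM, 2.09) and TGFB1 lower (2.74, 2.04 and 2.38 CPM against 5.30, 4.82 and 4.7 CPM, -1.05), so these ligands, which share receptors, differed in opposite directions. TGFB2 overlaps an antisense transcript, TGFB2-AS1, whose reads cannot be told apart from its own in a count without strand. Activin subunits also differed in opposite directions, with INHBA higher (2.28) and INHBB lower (-0.69). BAMBI, a decoy receptor, had 87.9, 85.5 and 87.9 CPM against 40.1, 40.9 and 39.5 CPM (1.12), and BMP4 was lower (-0.72).

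Of 30 tested NF-kappaB targets and chemokines, 7 were higher (23.3%, beside 2.47% of all genes) and 1, TNFAIP2 (-0.70), was lower (3.33%, beside 3.08%). CCL28, an epithelial chemokine, had 30.0, 31 and 26.9 CPM in A333fs and 7.46, 7.32 and 6.97 CPM in C321fs, with the control between at 14.5, 15.1 and 14.3 CPM. IL32, a proinflammatory cytokine, had 2.29, 2.36 and 2.44 CPM against 0.426, 0.243 and 0.356 CPM (2.76). CXCL14 (0.93), CXCR4 (0.64) and ICAM1 (0.72) depended on single libraries, with edgeR adjusted p-values of 0.036, 0.017 and 0.016 without C321fs replicate 3. Without that library 4 members were higher. The count of 7 held in no refit with a library omitted, and the largest was 6. CXCL14 kept its call only without A333fs replicate 3.

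Among genes of adhesion between cells, GJA1, which encodes a connexin of gap junction channels, had 10.6, 11 and 10.7 CPM in A333fs and 27.4, 33.3 and 33.3 CPM in C321fs (-1.54, SE 0.09, edgeR adjusted p = 7.8e-09), and both were above the control at 1.70, 2.37 and 2.40 CPM. PCDH7, a protocadherin, was higher (11.2, 12.0 and 12.4 CPM against 1.74, 2.5 and 2.24 CPM, log2 difference 2.47). In the axon guidance list 8 of 54 were higher (14.8%, beside 2.47% of all genes) and 4 lower (7.41%, beside 3.08%). ROBO2, a receptor for Slit proteins, had 14.2, 14.7 and 15.7 CPM against 3.74, 3.81 and 4.34 CPM (1.91). The secreted SEMA3C had 222, 272 and 234 CPM against 399, 458 and 486 CPM (-0.88). Neuronal synapse and channel genes gave 5 of 48 higher (10.4%, beside 2.47%) and 8 lower (16.7%, beside 3.08%), led by KCNMA1 (1.45) and CACNA1H (-1.17).

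Other lower genes with the largest or most certain differences had no common list. KREMEN2, a co-receptor of the Wnt antagonists of the Dickkopf family, had 13.1, 13.2 and 13.4 CPM in A333fs and 48.9, 41.8 and 41.9 CPM in C321fs (-1.74, SE 0.09, edgeR adjusted p = 6.6e-10). DOK7, an adaptor of the muscle kinase MuSK, had 9.49, 9.83 and 10.7 CPM against 33.8, 28.7 and 26.0 CPM (-1.56). The peroxisomal oxidase ACOX2 (-1.15), the sphingosine kinase SPHK1 (-1.73), the ferroxidase HEPHL1 (-2.07) and the lipoprotein receptor VLDLR (-2.03) were also lower. The adhesion molecule ICAM5 (-2.03), the homeobox factor PRRX2 (-2.09), RTBDN (-1.91) and LOC440461 (-1.98) were lower as well. These genes were picked among those without overlap between the samples, a condition met by 40.6% of all tested genes.

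No member of several housekeeping lists was called. Ribosomal proteins (74 tested), ribosome biogenesis (79), oxidative phosphorylation (75), mitosis (52), DNA replication (50), endoplasmic reticulum chaperones (30) and cytosolic heat shock genes (28) had 0 called members in edgeR's test and 0 by DESeq2. At an unadjusted p below 0.05 in edgeR, met by 17.6% of all tested genes on the higher and 21.7% on the lower side, 29 ribosomal protein genes were higher and 0 lower, 30 oxidative phosphorylation genes were higher and 3 lower, 2 mitosis genes were higher and 19 lower, and 3 DNA replication genes were higher and 17 lower. The counts were 20 and 8 for ribosome biogenesis, 9 and 4 for chaperones and 7 and 3 for heat shock genes. Beside 46.6% of all tested genes above 0, 61 of 74 ribosomal protein genes and 63 of 75 oxidative phosphorylation genes were above 0, with a median of 0.13 in both, and at an adjusted p below 0.01 with no minimum fold 3 and 2 of them were higher and 0 were lower, whereas 35 of 52 mitosis genes and 36 of 50 DNA replication genes were below 0, with medians of -0.10 and -0.08. For the mitosis list the count of lower genes was 9 without A333fs replicate 2. C321fs replicate 1 was the highest C321fs sample for 59 of the 74 ribosomal protein genes and 68 of the 75 oxidative phosphorylation genes, and without it the list medians were 0.19 and 0.20. The summed level of ribosomal protein genes ran from 57768 to 72960 CPM over the C321fs samples and from 68368 to 71636 CPM over the A333fs samples, and these ranges overlapped.

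**Figure D4:**
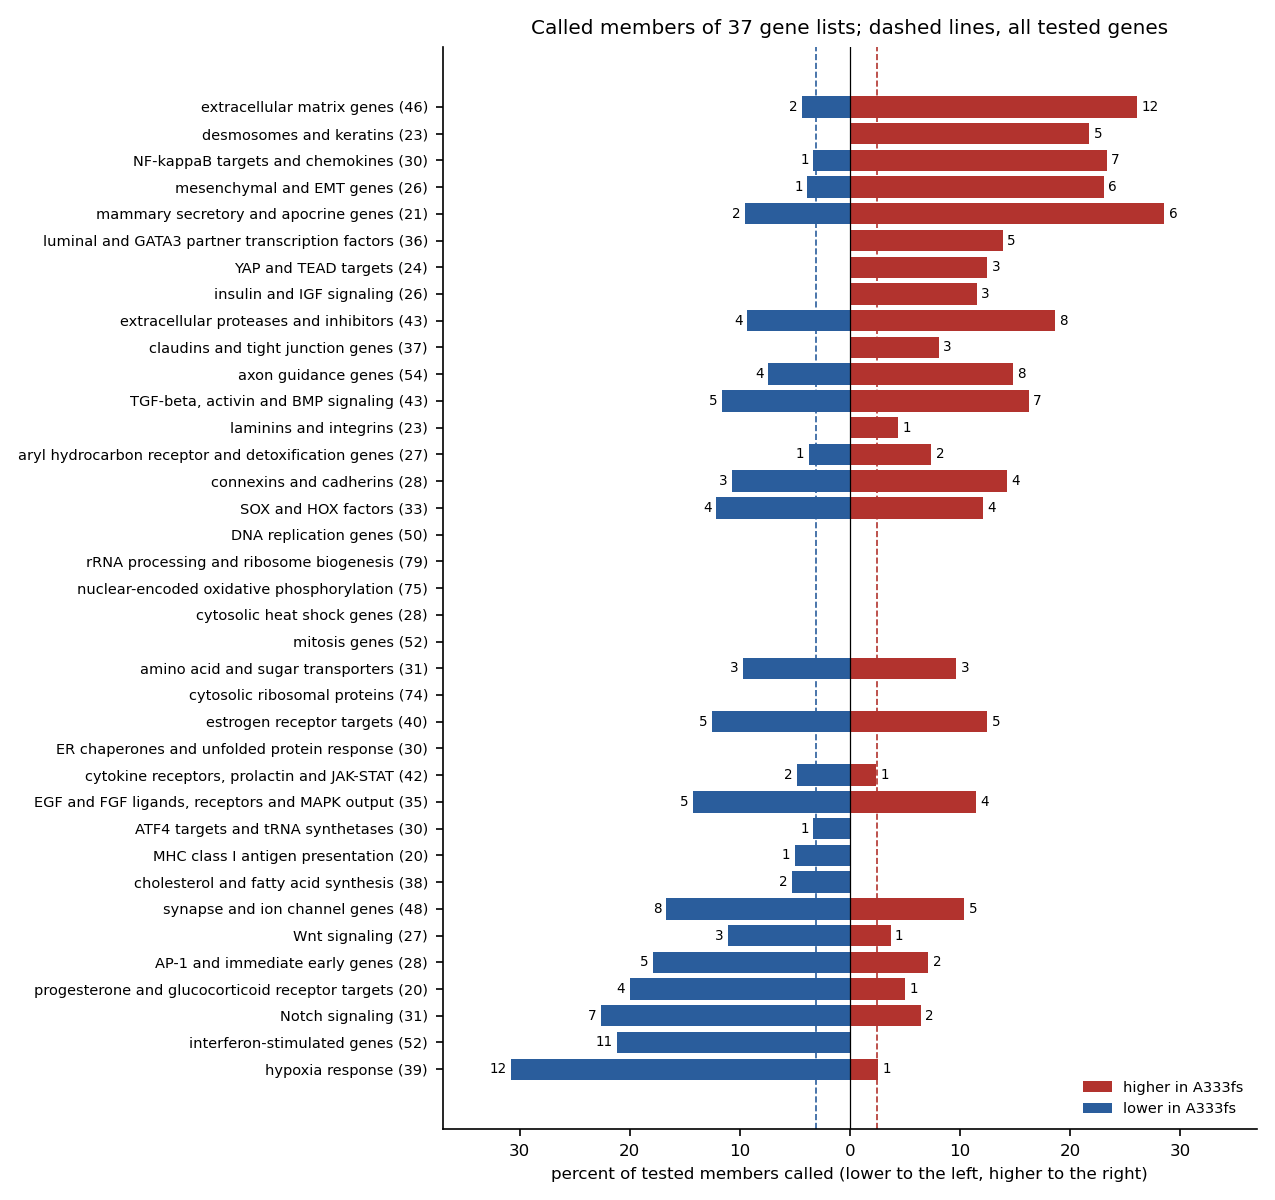
Percent of the tested members of each of 37 gene lists (y axis, number tested in parentheses) that were called lower (blue, to the left) or higher (red, to the right) in A333fs; the numbers at the bars are members, and dashed lines mark 2.47% higher and 3.08% lower over all tested genes. The hypoxia list reaches 30.8% on the lower side with 1 higher member, and the matrix list 26.1% on the higher side with 2 lower members.

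Mammary secretory and apocrine genes had the largest share of higher genes, leaving aside the short cell type marker lists, at 6 of 21 (28.6%, beside 2.47% of all genes), and 2 were lower (9.52%, beside 3.08%), with a median log2 difference of -0.08. The higher genes were AZGP1, the trefoil peptides TFF1 and TFF3, the calcium-binding proteins S100A8 and S100A9 and the iron-siderophore carrier LCN2, and the lower ones included UGT2B11, a glucuronosyltransferase. S100A8 lost the call without A333fs replicate 1 or C321fs replicate 3, the lower genes numbered 0 without A333fs replicate 2 or 3 or C321fs replicate 2, and DESeq2 called 5 higher and 0 lower. AZGP1, a secreted glycoprotein, was at 275, 256 and 266 CPM in A333fs and 167, 158 and 156 CPM in C321fs (0.73). Extracellular proteases and inhibitors had 8 of 43 higher (18.6%, beside 2.47%) and 4 lower (9.30%, beside 3.08%). The count of 8 held in no refit with a library omitted. It was 5 without A333fs replicate 3 or C321fs replicate 3, and 6 in the other refits. TMPRSS3, a membrane serine protease, was among the higher members at 19.8, 19.8 and 24.3 CPM against 3.50, 4.89 and 3.73 CPM (2.41). The 3 YAP and TEAD targets called among 24 were all higher (TGFB2, CTGF and ANKRD1), as were the 3 called insulin and IGF genes among 26. These were 12.5% and 11.5% of their lists, beside 2.47% of all genes. ANKRD1 was under 1 CPM in all 6 libraries. DESeq2 called 2 YAP and TEAD targets and 3 insulin and IGF genes higher, and 0 lower in either list. At an unadjusted p below 0.05 in edgeR, 3 YAP and TEAD targets and 7 insulin and IGF genes were lower, beside 21.7% of all tested genes. Targets of the progesterone and glucocorticoid receptors had 4 of 20 lower (20%, beside 3.08% of all genes), but 1 without C321fs replicate 1. Wnt genes had 3 of 27 lower (11.1%, beside 3.08%), but 1 without C321fs replicate 1 or A333fs replicate 2. SOX and HOX factors had 4 higher and 4 lower of 33 (12.1% each, beside 2.47% and 3.08%), and 1 lower without A333fs replicate 3. Amino acid and sugar transporters had 3 higher and 3 lower of 31 (9.68% each, beside 2.47% and 3.08%). The amino acid carrier SLC6A14 had 84.8, 96.2 and 86.6 CPM against 18.8, 19.3 and 22.3 CPM (2.15). SLC5A1 lost the call in 5 and SLC2A12 in all 6 refits with a library omitted.

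Base composition moved with the direction of the difference. The median GC content was 58.3% among the genes lower in A333fs, 48.7% among those higher and 49.6% among all tested genes, and 205 of the 455 lower genes fell in the fifth of genes with the highest GC content. The slope of log2 level on GC content, per 10 percentage points, was -0.0856, -0.171 and -0.118 in the A333fs libraries. It was 0.059, -0.0689 and -0.0712 in the C321fs libraries, and among the libraries of these lines C321fs replicate 1 stood apart. The difference in mean slope between A333fs and C321fs had an exact permutation p of 0.1, the smallest that 3 against 3 can give. The control libraries had higher slopes than any mutant library, at 0.170, 0.233 and 0.153. Splice del libraries had slopes of -0.0544, -0.0670 and 0.0216. Whether the control slopes affected where the control stood on single genes was not tested. Once the trend of GC content and length was taken out, 412 genes were higher and 368 lower, among them 348 of the 366 and 315 of the 455 called before. In that fit hypoxia had 12 lower and 1 higher, interferon 14 lower and 0 higher, matrix 11 higher and 1 lower, and Notch 5 lower and 2 higher. Wnt genes went from 3 lower and 1 higher to 1 lower and 2 higher, and targets of the progesterone and glucocorticoid receptors from 4 lower and 1 higher to 2 of each. Among the genes named above, ISG15 (-0.65), ANGPTL4 (-0.50), RAPGEFL1 (-0.54), LTBP4 (-0.48), JAG2 (-0.55), HES6 (-0.35), MAFF (-0.52) and TNFAIP2 (-0.53) were no longer called lower, and CALD1 (0.56), THBS1 (0.54) and CXCR4 (0.58) no longer higher. Whether GC content had a part in the other differences was not tested.

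For most of the higher genes the control samples stood nearer to C321fs than to A333fs. On a scale where the C321fs mean is 0 and the A333fs mean is 1 (log2 CPM), the control had a median position of 0.09 over the 366 higher genes and was nearer to C321fs for 79.5% of them. The Splice del samples had a median of 0.66 over the same genes and were nearer to A333fs for 63.4%. Over the 455 lower genes both medians lay between the frameshifts, the control at 0.35 and the Splice del samples at 0.40, nearer to C321fs for 60.9% and 62.6% of the genes. Gene by gene, the control lay between for 61.5%, beyond C321fs for 110 and beyond A333fs for 65. The Splice del samples lay between for 85.9%. After removal of the GC and length trend the control had a median of 0.51 on the lower genes, so on that side its place depended on the processing. The other 3 medians were 0.12, 0.67 and 0.40.

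**Figure D5:**
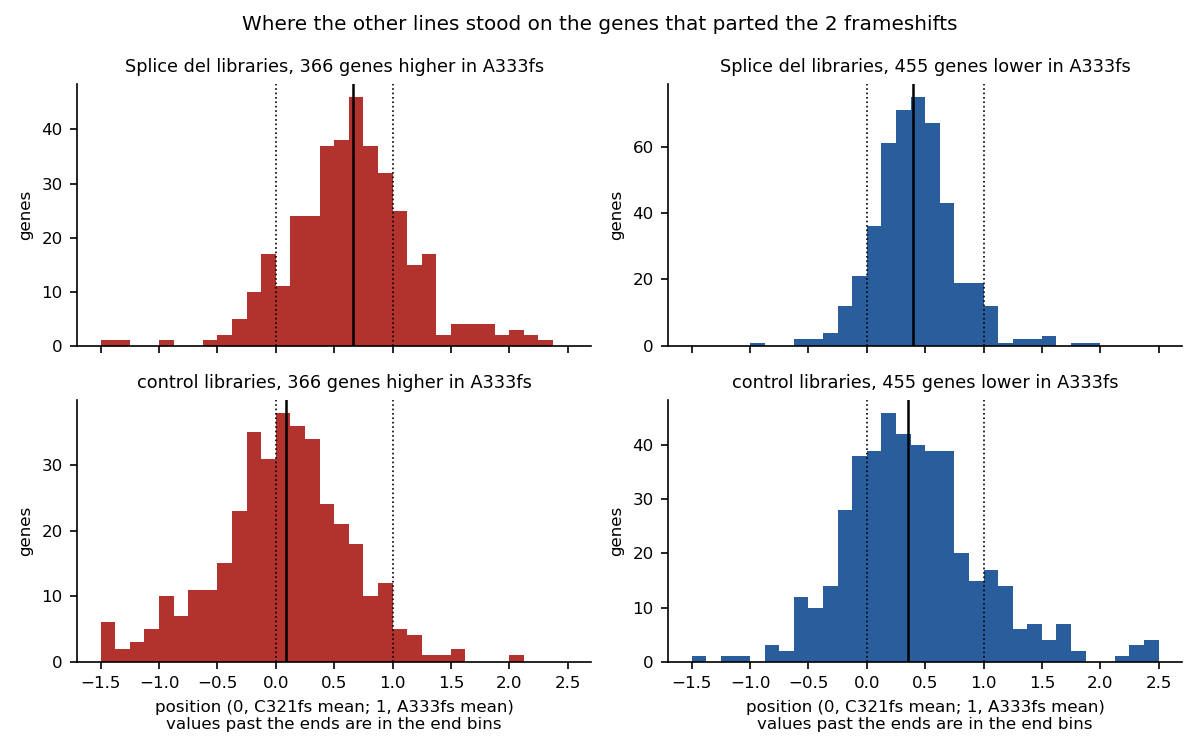
Number of called genes (y axis) by the position of the Splice del (upper) and control (lower) means between C321fs (0) and A333fs (1) on the log2 CPM scale (x axis), for the 366 genes higher (left) and the 455 lower (right) in A333fs; solid lines are medians. On the higher genes the control piles up near 0 (median 0.09) and Splice del nearer to 1 (median 0.66), and on the lower genes both are centred between the marks.

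No chromosome carried the difference as a block. The median log2 difference per chromosome ran from -0.12 (chromosome 19, 1102 genes) to 0.05 (chromosome 5, 703 genes), and after removal of the GC and length trend the lowest median was -0.02 and chromosome 19 lay at 0.01. Chromosome 19 also had the highest median GC content of the genes tested, 59.4%.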

How the data were processed

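RNA was sequenced from T47D cells with an empty vector or 1 of 3 GATA3 mutants (3 samples each). Reads were trimmed and mapped to hg38 by the authors, who deposited a table of raw fragment counts per gene, made with featureCounts (version 1.6.4) without strand. The submitters' notes name HISAT2 and the file header a STAR folder, so the aligner is uncertain. The sources also differ on the growth medium. The deposited gene length served only for length corrections. Antisense or overlapping genes can share or lose reads. Tagged-protein ChIP samples were not analysed here.

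Counts were fitted with edgeR (version 4.0.16, R 4.3.3; filterByExpr, trimmed mean of M-values, glmQLFit, glmQLFTest) in 1 fit of all 12 libraries, with the contrast A333fs minus C321fs and Benjamini-Hochberg adjustment over 14789 genes. On simulated counts for this contrast over 14646 genes the fit recovered 84.5% of 200 genes changed 2-fold, with 1 false call. The simulation gave each unchanged gene 1 mean share in all libraries and the fitted spread, with no GC trend and no deviating library. It does not measure errors of those kinds. Alternatives were other scalings, filters, thresholds, DESeq2 (version 1.42.0), a replicate block, removal of a GC and length trend (loess), and leaving out each library. The 3 libraries per line and totals of 28055843 to 33699541 counts limit the precision, and intervals cover counting error only.

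Named genes were GATA3, 7 genes the study names, in each direction the 10 called genes with the largest change at 1 CPM or more and the 10 with the smallest p, both without overlap between samples, and up to 4 called genes per direction of each of 37 lists. Other list members are named only for their values. The comparison, lists and members were chosen with earlier results of these data known. The values of 2 list members are not reported here.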

Additional observations from a re-analysis of the deposited data

Results flagged for a closer look

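For 18 of the genes named for the largest change or the smallest p, the 3 A333fs and the 3 C321fs samples lay on opposite sides of all 3 control samples. The difference between the frameshifts passed edgeR's test for each, which was a condition for being named. Those above the control in A333fs and below it in C321fs were LOC100132735 (log2 difference 5.58), CDC42EP3 (2.25), CCL28 (2.01), RCAN1 (1.81), FBXO32 (1.80), EPAS1 (1.58) and PHLDA1 (1.34), which encodes a nuclear protein induced by growth signals. Those below the control in A333fs and above it in C321fs were ETV4 (-2.35), PRRX2 (-2.09), ICAM5 (-2.03), LOC440461 (-1.98), RTBDN (-1.91), KREMEN2 (-1.74), SPHK1 (-1.73), SLC16A3 (-1.58), DOK7 (-1.56), AREG (-1.14) and VEGFA (-1.08). Each line was compared here with the same 3 control samples, and neither difference from the control was required to pass a test. The genes were picked for a large or certain difference between the lines, and this order was not counted over all tested genes. CITED2, singled out above after its values were seen, had the same order and is not among the 18.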

How the results depend on the processing

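The counts of 366 higher and 455 lower genes stayed within 1.5 times under other scalings and filters, DESeq2 (357 and 382), the 6 libraries alone (319 and 345) and the GC and length correction (412 and 368). They moved with the fold limit, to 1005 and 1315 with none, to 188 and 164 above 2-fold, and to 139 and 101 when edgeR tested against a fold of 1.5. In that last fit 57.9% of the calls were higher, beside 44.6% in the report. Leaving out 1 library gave 329 to 383 higher and 356 to 512 lower genes. The difference in GATA3 was -0.13 to -0.18 in those fits. Replicate numbers did not pair the samples (correlations of same-numbered deviations 0.165, 0.0678 and 0.0132), and a fit with the replicate block gave 360 and 433 genes. Over the named genes and alternatives, 2812 values kept their side of the threshold, 229 lost the call, 1 gained it and 0 changed sign. Alternatives that only loosened a threshold could not lose a call. Genes without a value in a fit were left out of the tally, so the filter of 10 counts in every library added 131 values. Of the 163 tested named genes 158 were called, most of them as a condition for being named. The tally therefore does not measure how firm calls are in general. With 3 libraries per line, the depth does not limit abundant genes, whereas genes under 1 CPM rest on few counts.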

Other observations

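Clustered genes, chosen after their values were seen, showed small differences, read here beside the 46.6% of all tested genes above 0 and the 6.8% higher at an adjusted p below 0.01 with no minimum fold in edgeR. In the PCDHB protocadherin cluster on chromosome 5, 13 of 15 tested genes were above 0 in A333fs minus C321fs, with a median log2 difference of 0.27. Their summed level was 236.7 to 269 CPM in A333fs and 200.7 to 224.4 CPM in C321fs, and 3 genes had an edgeR adjusted p below 0.01 but 0 exceeded the fold limit. In the neighbouring PCDHGA and PCDHGB genes, 14 of 19 were above 0, with a median of 0.21 and a range from -0.58 to 1.27, 2 had an edgeR adjusted p below 0.01 and 0 were called. Their summed level was 124.7 to 146.7 CPM in A333fs and 107.4 to 124 CPM in C321fs. In the HOXC cluster on chromosome 12, 8 of 9 tested genes were above 0 (median 0.30), and HOXC8, a homeobox factor, was called higher (0.72).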
